A study of Mus musculus with 75 samples.

Results

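The 10 imprinted growth genes H19, Igf2, Mest, Peg3, Plagl1, Dlk1, Meg3, Grb10, Cdkn1c and Ndn were followed in mouse skin fibroblasts through replicative senescence and through changes in the level of 3 transcription factors. They were chosen by name from the known imprinted genes, after H19 and Mest had been seen among the strongest rises with E2f4 overexpression. The values of that overexpression are therefore a description, given without a test, while the rule made no use of values from the passages, the knockdowns or the chromatin data. The choice was still made with earlier results of these data known, so the tests in those data are not sure to be independent of it. All 10 genes are among the 24984 genes of the count files, and all 10 passed the filter on low counts in each of the 5 RNA-seq experiments.

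Imprinted genes are expressed mainly from a single parental copy, which is marked by DNA methylation laid down in the germ line. H19, Meg3, Grb10 and Cdkn1c are expressed from the maternal copy in most tissues, and Igf2, Mest, Peg3, Plagl1, Dlk1 and Ndn from the paternal copy. Many of them are high in the fetus and are silenced in most organs after birth, and as a group they are known for setting the growth of the body. The counts do not separate the parental copies, so nothing here bears on allelic expression.

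The paper describes the cells as mouse skin fibroblasts and gives the strain, C57BL/6, for those of 2-month-old mice. It states no separate strain for the fibroblasts of newborn mice. In the untreated series, RNA-seq libraries were made from 4 passages named P1, P3, P5 and P7, 4 libraries each, from cells of 2-month-old female mice. ATAC-seq, which marks open chromatin, was done on 4 samples at P1 and on 3 at every later passage. E2f4 overexpression (2 libraries) used a doxycycline-inducible lentivirus in P4 cells, and its 2 controls carried the vector with EGFP alone. The knockdowns used lentiviral hairpins with 3 libraries a group: sh1 against E2f4, sh3 and sh4 against Tead1, and sh5 and sh6 against Atf3. Each experiment had its own non-targeting hairpin (nt), and infected cells were selected with puromycin. The paper places the E2f4 knockdown in proliferating P3 cells and the Atf3 knockdown in pre-senescent cells. Its methods name a passage later than P4 for senescence interventions in general, and do not settle which passage holds for the overexpression. The labels give no passage for the knockdown libraries, and the paper names none for the Tead1 knockdown itself. The manipulated cells came from newborn and from 2-month-old mice, and the labels do not say which library came from which. The labels also do not say whether replicates were separate animals or cultures, so p-values measure only the spread between these libraries.

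Total counts per library lay between 9147324 and 27552949, and the 10 genes took from 0.038% to 0.27% of them. E2f4 was at 35.5 to 47.5 CPM (read counts scaled to the size of the library) with the vector and 1118 to 1180 with overexpression, and at 59.6 to 60.8 with nt and 20.4 to 21.8 with sh1. Tead1 was at 508 to 572 CPM with nt, 268 to 285 with sh3 and 313 to 320 with sh4. Atf3 was low throughout its experiment, at 2.77 to 3.31 CPM with nt, 0.451 to 2.10 with sh5 and 1.51 to 2.09 with sh6. Lower Atf3 was not confined to that experiment. It was at 2.61 to 3.30 CPM with E2f4 nt and 1.82 to 2.19 with sh1. In the Tead1 experiment it was at 3.815 to 4.29 with nt, 2.26 to 2.96 with sh3 and 2.48 to 2.73 with sh4. With the E2f4 vector it was at 2.75 to 3.17, and with overexpression at 1.64 to 2.15. The other factors also differed within the Atf3 experiment. There E2f4 was at 36.65 to 42.3 CPM with nt, 35.07 to 43.24 with sh5 and 59.14 to 66.65 with sh6. Tead1 was at 497.3 to 549.4 CPM with nt, 649.5 to 728.6 with sh5 and 567 to 666.6 with sh6. Genes of the Y chromosome had 0 counts in the 16 passage libraries and were detected in all 28 manipulated libraries. In Atf3 sh5, replicate 3 stood apart from replicates 1 and 2, since its counts gave a chi-square, divided by the degrees of freedom, of 59.4 and 63.7 against them, and these gave 3.29 against each other. Fibroblast markers were abundant in every group, with the 8 summing to between 16720 and 41280 CPM.

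H19 and Igf2 lie next to each other on chromosome 7 and share enhancers and a control region, where the protein CTCF binds the unmethylated maternal copy. H19 (chr7:142575530-142578146, minus strand, GRCm38) encodes a long non-coding RNA and holds the microRNA gene Mir675. Igf2 (chr7:142650768-142666816, minus strand) encodes insulin-like growth factor 2, a growth factor of the fetus, and has 4 annotated start sites. Upstream of H19, at 2.5 and 3.8 kb from its start, 2 regions had an ATAC-seq peak in all 13 samples, in the part of the domain where the control region is known to lie. They are shown because they were open while H19 itself fell, as described below. Each is 300 bases around a peak summit (of P1 replicate 1 for the first and of P1 replicate 2 for the second), read on the strand of H19 from GRCm38.p6 (RefSeq), with matches to the core of the CTCF motif, GGNGGCAG, in capitals:
H19 region 2.5 kb upstream, chr7:142580186-142580485: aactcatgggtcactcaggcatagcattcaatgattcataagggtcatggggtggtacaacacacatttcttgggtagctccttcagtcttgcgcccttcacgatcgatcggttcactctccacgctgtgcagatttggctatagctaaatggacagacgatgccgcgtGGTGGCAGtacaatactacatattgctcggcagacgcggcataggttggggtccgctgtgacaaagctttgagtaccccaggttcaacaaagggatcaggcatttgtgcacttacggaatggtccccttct
H19 region 3.8 kb upstream, chr7:142581641-142581940: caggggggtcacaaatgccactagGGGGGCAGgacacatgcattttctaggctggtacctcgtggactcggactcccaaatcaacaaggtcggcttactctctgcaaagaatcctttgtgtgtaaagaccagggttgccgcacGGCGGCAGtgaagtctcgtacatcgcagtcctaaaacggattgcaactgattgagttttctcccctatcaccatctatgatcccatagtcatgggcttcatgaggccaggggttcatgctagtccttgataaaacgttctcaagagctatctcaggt
The first window held 1 match and the second held 2. Both strands were searched, and 10.3% of the 176592 windows of this size around the peaks of P1 replicate 1 held a match, so the letters alone do not set these windows apart.

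Of the Igf2 start sites, the one at position 142658804 had ATAC-seq peaks at P1, and the 250 bases before it are given for that reason. Capitals mark the letters of a TEAD motif (GGAATG, 180 bases before the start) and of the CTCF core (65 bases before the start), each on the reverse strand:
Igf2 promoter, chr7:142658805-142659054, minus strand: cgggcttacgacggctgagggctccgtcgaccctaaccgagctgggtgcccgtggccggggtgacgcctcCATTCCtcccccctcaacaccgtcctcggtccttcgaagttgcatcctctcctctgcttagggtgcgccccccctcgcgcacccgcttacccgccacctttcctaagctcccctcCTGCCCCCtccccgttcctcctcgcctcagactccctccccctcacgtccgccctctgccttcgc
The TEAD letters were in 12.6% and the CTCF core in 9.93% of the 32851 RefSeq promoter windows of this length. Promoter sequences were at hand for 8 of the 10 genes, and not for H19 and Cdkn1c.

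Mest (chr6:30733506-30748466, plus strand) encodes an enzyme of the alpha/beta hydrolase fold that is found in the endoplasmic reticulum, and an intron of it holds Mir335. Plagl1 (chr10:13090832-13131694, plus strand) encodes a zinc finger transcription factor known as Zac1, and Ndn (chr7:62348277-62349928, plus strand) encodes necdin, which restrains growth. Their promoters are shown because their strongest peaks within 1000 bases of a start differed most regularly between P1 and P7. For Mest the strongest P7 peaks lay over 500 bases from the start, and so outside the printed bases. Capitals mark a match to the E2F sequences TTCCCGC and its variant TTCGCGC, or to TTGCCGC and the related sequence TTGGCGC, which was found in the Plagl1 window alone of these 3, at 90 bases from the start on the reverse strand:
Mest promoter, chr6:30737800-30738049, plus strand: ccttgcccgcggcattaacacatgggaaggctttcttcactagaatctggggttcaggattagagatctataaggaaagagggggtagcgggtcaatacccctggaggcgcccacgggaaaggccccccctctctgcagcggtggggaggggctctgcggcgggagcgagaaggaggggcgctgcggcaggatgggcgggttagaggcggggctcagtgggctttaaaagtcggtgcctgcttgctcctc
Plagl1 promoter, chr10:13090582-13090831, plus strand: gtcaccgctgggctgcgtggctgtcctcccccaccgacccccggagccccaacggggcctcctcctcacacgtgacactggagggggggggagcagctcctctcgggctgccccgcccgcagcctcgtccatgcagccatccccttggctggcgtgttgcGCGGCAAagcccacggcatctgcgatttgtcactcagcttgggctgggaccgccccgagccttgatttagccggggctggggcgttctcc
Ndn promoter, chr7:62348027-62348276, plus strand: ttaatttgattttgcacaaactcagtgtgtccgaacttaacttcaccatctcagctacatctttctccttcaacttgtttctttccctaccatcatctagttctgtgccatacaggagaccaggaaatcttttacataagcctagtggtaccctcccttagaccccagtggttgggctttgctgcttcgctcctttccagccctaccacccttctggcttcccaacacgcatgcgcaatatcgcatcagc
Peg3 (chr7:6703892-6730462, minus strand) encodes another zinc finger transcription factor. Its promoter is given because it held 2 overlapping E2F matches, the first at 160 bases before the start, and GGAATG at 84 bases:
Peg3 promoter, chr7:6730420-6730669, minus strand: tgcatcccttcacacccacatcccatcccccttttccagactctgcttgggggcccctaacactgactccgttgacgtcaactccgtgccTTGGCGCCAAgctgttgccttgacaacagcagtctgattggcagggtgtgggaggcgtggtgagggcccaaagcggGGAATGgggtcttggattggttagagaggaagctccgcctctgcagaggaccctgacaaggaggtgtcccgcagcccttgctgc
An E2F match stood in 7.89% of all promoter windows, and an AP-1 match (TGACTCA or TGAGTCA) in 4.46%. No window of the 8 genes held an AP-1 match. These matches describe letters and are not evidence of binding.

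The mature microRNAs of H19 and Mest are given with their seeds (bases 2 to 8) in capitals, since their host genes moved most with E2f4 overexpression:
miR-675-5p: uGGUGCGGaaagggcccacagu
miR-675-3p: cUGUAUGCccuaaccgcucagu
miR-335-5p: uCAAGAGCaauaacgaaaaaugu
miR-335-3p: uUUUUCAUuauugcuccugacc
The 4 seeds differ from each other. The RNA-seq counts did not measure them, since Mir675 had 0 counts in all 44 libraries and Mir335 had 1 count in 1 library.

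Among the 10 genes, the largest change with passage was in H19. Its level was 56.2, 52.8, 36.3 and 65.5 CPM in the 4 libraries of P1, 7.36, 9.12, 7.22 and 9.22 at P3, 1.23, 2.90, 1.94 and 2.58 at P5, and 1.22, 0.386, 0.692 and 1.04 at P7. The 4 passages did not overlap, and each was lower than the one before. H19 fell 6.41-fold from P1 to P3 (log2 fold change -2.68 ± 0.20 SE, adjusted p = 7.559e-09, edgeR quasi-likelihood test), 3.805-fold from P3 to P5 (adjusted p = 1.751e-05) and 2.56-fold from P5 to P7 (adjusted p = 0.009607). Over the whole series it fell 62.3-fold (log2 fold change -5.96 ± 0.27, adjusted p = 1.462e-12), and at P7 it rested on 5 to 16 counts per library.

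Igf2 was at 32.1, 36.4, 25.4 and 46.9 CPM at P1, 6.64, 3.98, 3.67 and 6.73 at P3, 1.42, 0.968, 1.36 and 1.92 at P5, and 1.22, 1.39, 1.85 and 1.19 at P7. P1, P3 and P5 stood apart, while P5 and P7 overlapped. Igf2 fell 6.71-fold from P1 to P3 (log2 fold change -2.75 ± 0.21, adjusted p = 1.351e-08) and 3.68-fold from P3 to P5 (adjusted p = 6.27e-05). Between P5 and P7 its log2 fold change was -0.01, with a 95% interval from -0.64 to 0.62. Both genes of the domain fell by close to the same factor in the first and in the second step, and a difference between them was not tested.

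Plagl1 was the third gene that was lower at each passage. It was at 17.5, 18.7, 14.6 and 19.2 CPM at P1, 6.64, 11.2, 6.83 and 7.39 at P3, 5.04, 5.67, 3.42 and 3.84 at P5, and 2.75, 3.09, 2.46 and 3.41 at P7. The 4 passages did not overlap, though P5 and P7 came close. Plagl1 fell 2.19-fold from P1 to P3 (adjusted p = 6.488e-05), 1.78-fold from P3 to P5 (adjusted p = 0.003446) and 5.96-fold over the series (log2 fold change -2.58 ± 0.20, adjusted p = 1.269e-09). The last step, with a log2 fold change of -0.61, had an adjusted p of 0.05081. It passed without P3 replicate 2, P5 replicate 3, P5 replicate 4 or P7 replicate 4, with an adjusted p between 0.02699 and 0.04767.

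Peg3 had 18.3 to 21.9 CPM at P1, then 9.66 to 11.3 (P3), 6.91 to 11.9 (P5) and 5.88 to 13.4 (P7). P1 stood above all later libraries, which overlapped with each other. Its fall from P1 to P3 was 1.94-fold (adjusted p = 0.0006837), just under the 2-fold limit, and over that limit without P1 replicate 1 (log2 fold change -1.0013). From P1 to P7 it was 2.04-fold (adjusted p = 0.0001155), and under the limit without P1 replicate 2, P1 replicate 3 or P7 replicate 1 (log2 fold changes from -0.98 to -0.84).

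Meg3 moved the other way. This long non-coding RNA (chr12:109540996-109571729, plus strand) lies beside Dlk1 on chromosome 12, where the maternal copy makes Meg3, Rian and Mirg and the paternal copy makes Dlk1. Meg3 was at 29.2, 38.3, 29.2 and 38.2 CPM at P1, 42.6, 49.2, 50.9 and 48.1 at P3, 61.2, 107, 78.5 and 71.9 at P5, and 105, 81.6, 124 and 127 at P7. Each passage was above P1 in every library, and P5 and P7 overlapped. It rose 3.24-fold from P1 to P7 (log2 fold change 1.70 ± 0.16, adjusted p = 2.449e-08). The step from P3 to P5 was 1.67-fold (adjusted p = 0.002003). The step from P1 to P3 was 1.41-fold (adjusted p = 0.02099) and had an adjusted p over 0.05 without P1 replicate 1, P1 replicate 3 or P3 replicate 3 (adjusted p from 0.05136 to 0.07013). The step from P5 to P7 was 1.37-fold (adjusted p = 0.04832) and had an adjusted p over 0.05 in 13 of the 16 fits that left out a library, those without P1 replicate 3, P5 replicate 2 or P7 replicate 2 being the exceptions (adjusted p of the 13 from 0.05026 to 0.168).

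Rian, the long non-coding RNA downstream of Meg3, was named after its values were seen. Its mean was 48.7 CPM in P1, 114 in P3, 144 in P5 and 233 in P7, with a log2 fold change of 2.26 ± 0.13 from P1 to P7 (adjusted p = 3.862e-11, edgeR). Dlk1 (chr12:109452485-109463336, plus strand) encodes a transmembrane relative of the Notch ligands that holds back the differentiation of fat cells. It was low in the passages, at 2.19 to 4.08 CPM in P1, then 0.878 to 1.55 (P3), 0.728 to 1.36 (P5) and 0.891 to 2.24 (P7). P1 and P3 did not overlap, and P7 reached up into the range of P1. Dlk1 fell 2.49-fold from P1 to P3 (adjusted p = 0.002444). From P1 to P7 its log2 fold change was -0.94 ± 0.30 (adjusted p = 0.01029), and over the 2-fold limit without P1 replicate 1, P1 replicate 3, P7 replicate 2 or P7 replicate 3 (from -1.14 to -1.01).

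The 2 growth inhibitors expressed from the maternal copy differed. Grb10 (chr11:11930499-12037428, minus strand), an adaptor that holds back signalling from the insulin and IGF receptors, had 35.5 CPM per kb of exon at P1 and 43.0 at P7, and Ndn had 35.0 and 48.2, the highest levels per length among the 10 at both passages. It was at 172 to 196 CPM in P1, then 311 to 360 (P3), 269 to 313 (P5) and 197 to 246 (P7). It was highest at P3, with a 1.76-fold rise from P1 (adjusted p = 4.525e-07), and it fell 1.29-fold from P5 to P7 (adjusted p = 0.00456). Cdkn1c (chr7:143458339-143461059, minus strand), which encodes the cyclin-dependent kinase inhibitor p57, was at 1.85 to 3.65 CPM in P1, then 0.903 to 2.195 (P3), 0.388 to 1.59 (P5) and 1.26 to 3.09 (P7). These ranges overlapped, and no step passed the test. From P5 to P7 its log2 fold change was 1.06 (adjusted p = 0.06803), and it passed without P5 replicate 4 (1.34, adjusted p = 0.0318) or P7 replicate 4 (1.24, adjusted p = 0.03695), and with DESeq2 in place of edgeR (1.06, adjusted p = 0.04914).

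Ndn was at 52.2 to 61.5 CPM in P1, then 55.1 to 64.0 (P3), 61.8 to 81.2 (P5) and 73.9 to 90.1 (P7). P7 was above P1 in every library, and it rose 1.38-fold between them (adjusted p = 0.0003994). The step from P3 to P5 had a log2 fold change of 0.27 with an adjusted p of 0.04712, which was over 0.05 when any of 9 libraries was left out, namely P1 replicates 1, 2 and 4, P3 replicates 2, 3 and 4, P5 replicates 3 and 4, and P7 replicate 2 (adjusted p from 0.05224 to 0.1662). Mest was at 3.96 to 5.44 CPM in P1, then 2.19 to 5.35 (P3), 2.52 to 3.30 (P5) and 2.61 to 5.27 (P7). Its passages overlapped and no step passed the test. From P1 to P7 the log2 fold change was -0.37 (95% interval from -0.84 to 0.11, adjusted p = 0.1978), and -0.61 without P7 replicate 4 (adjusted p = 0.03899).

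**Figure D1:**
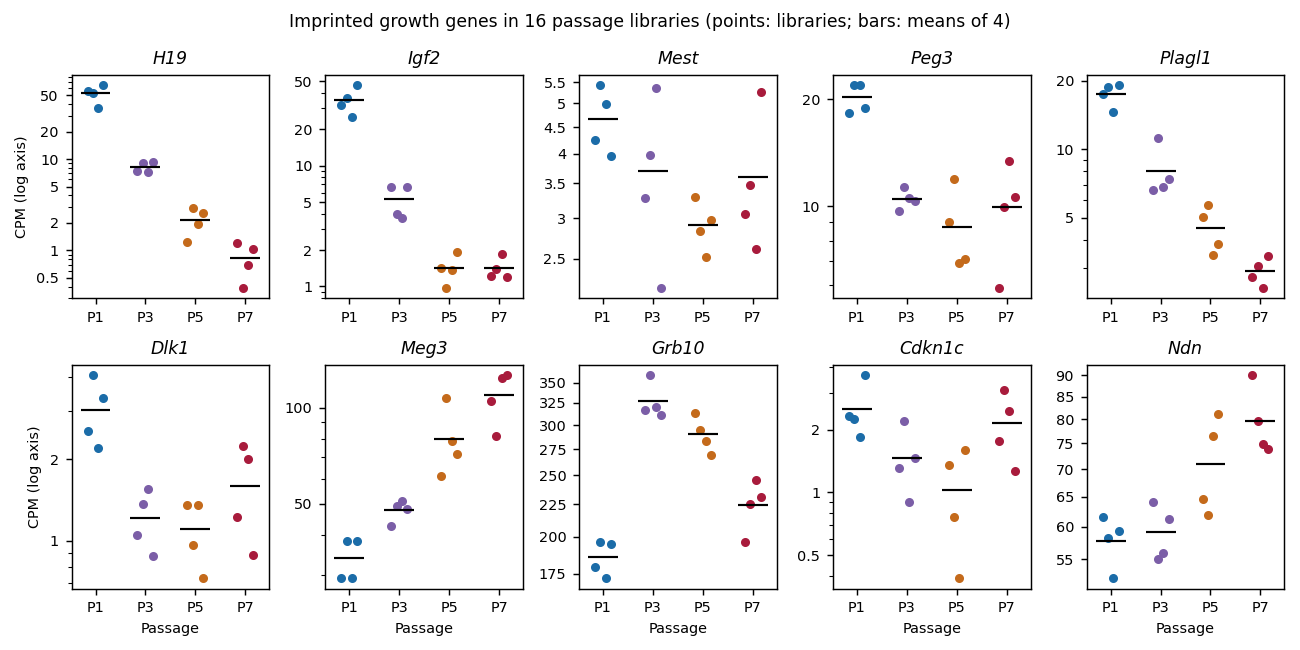
CPM of the 10 genes on a log axis at each passage, with a point for each of 4 libraries and a bar for their mean. H19 fell from a mean of 52.7 to 0.834 CPM, Igf2 and Plagl1 fell with it, Meg3 rose from 33.7 to 109, and Mest overlapped between passages.

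Of the 10 genes, 4 were called from P1 to P3, all lower, at an adjusted p under 0.05 and over 2-fold, where 8.98% of the 13442 genes tested were called. With no limit on the fold, 7 of the 10 passed, against 33.4% of all genes. From P3 to P5, 2 were called, both lower, against 3.89%, and 5 passed, against 28.7%. From P5 to P7, 1 was called against 3.47%, and 3 passed against 16.8%. From P1 to P7, 4 were called lower and 1 higher, against 21.4% of all genes in both directions, and 8 passed, against 62.5%. The median log2 fold change from P1 to P7 was -0.65 over the 10 genes and -0.01 over all genes. These comparisons share libraries, so their counts are not independent of each other.

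Markers of several other cell types also changed over these steps. From P1 to P3, 8 of 8 macrophage markers, 7 of 7 endothelial markers, 6 of 7 tested muscle markers and 5 of 6 tested keratinocyte markers were called lower. Of the adipocyte markers 2 of 4 tested were called lower, and of the Schwann cell and melanocyte markers 1 of 6 was called lower and 1 higher. The summed level of the macrophage markers was 295 to 453 CPM at P1 and 43.2 to 59.7 at P3, and that of the endothelial markers was 155 to 171 and then 37.1 to 43.1. The muscle list had 138 to 210 CPM at P1 and 53.3 to 59.6 at P3, with Pax7 and Ckm at 0 at P3. The keratinocyte list had 47.5 to 315 and then 1.58 to 3.48, with Krt15 at 0 at both passages and Dsc3 at 0 at P3. The adipocyte list had 432 to 588 CPM and then 230 to 413, and the Schwann cell and melanocyte list was higher at P3, with 39.0 to 47.4 and then 60.9 to 80.8. After P3 the endothelial sum went on down, to 6.24 to 8.61 CPM at P7, while the macrophage sum was 21.9 to 31.5 at P5 and higher, at 34.4 to 51.5, at P7. The part of these cells in the falls of H19, Igf2, Plagl1, Peg3 and Dlk1 was not tested, and in bulk samples fewer cells of a type and less RNA per cell cannot be told apart. The 12 proliferation genes fell as well, from a sum of 1790 to 1881 CPM at P1 to 282 to 345 at P7.

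Over the 16 passage libraries, the genes whose log2 CPM ran most like that of H19 were Flvcr1 (Pearson r = 0.983), Sema3d (r = 0.982) and Scn3a (r = 0.982), of 13442 genes. Among those most like Mest were D030025P21Rik (r = 0.756) and Npy (r = 0.735). Among the 10 genes, H19 ran with Plagl1 (r = 0.965) and Igf2 (r = 0.945) and against Meg3 (r = -0.880), while its r with Mest was 0.456. These values describe 16 points in 4 passages. After the passage means were taken out, the r of H19 was 0.502 with Flvcr1, 0.694 with Sema3d and 0.557 with Scn3a.

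With E2f4 overexpression, H19 was at 918 and 955 CPM, against 42.8 and 59.5 with the vector, which is 18.3-fold. Mest was at 140 and 136 CPM, against 9.21 and 7.32, which is 16.6-fold. Both treated libraries lay far above both controls in each gene. Igf2, the neighbour of H19, was at 71.1 and 87.5 CPM against 19.2 and 22.5, or 3.81-fold. Dlk1 was at 72.5 and 80.7 CPM against 34.3 and 35.0, or 2.21-fold. Meg3 was lower, at 138 and 124 CPM against 516 and 710, or 4.66-fold.

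The other 5 genes were within 2-fold with E2f4 overexpression. Cdkn1c was at 7.60 and 7.41 CPM against 4.10 and 5.01, and Grb10 at 1075 and 1136 against 942 and 856, both without overlap. Peg3 was at 16.9 and 14.1 CPM against 32.0 and 27.6, and Ndn at 52.4 and 56.3 against 68.2 and 62.2, so that both were lower. Plagl1 was at 78.3 and 75.5 CPM against 80.7 and 77.6, where the ranges overlapped. Over 2-fold, 4 of the 10 genes were higher and 1 lower, and 7.69% of 13199 genes were called higher in this contrast. The members were picked from it, so nothing is read from that share. The fold of Meg3 and H19 leans on the controls, with log2 values of -2.22 and 4.20 on both and of -1.97 and 4.45 without control replicate 2.

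The cells of the 2 arms also differed in sex-linked RNA. The Y-linked gene Ddx3y was at 36.5 to 36.8 CPM with the vector and 7.36 to 9.96 with E2f4, Eif2s3y at 14.8 to 16.1 and 4.21 to 4.47, and Xist at 1156 to 1400 and 560 to 686. The muscle markers summed to 66.8 to 76.3 CPM with the vector and 22.4 to 23.8 with E2f4, with 7 of the 10 at 0 in both arms, Myod1, Myf5 and Myog among them. The proliferation genes summed to 1177 to 1212 CPM and 1893 to 2038. How far the 2 arms held the same mix of cells, and its part in the values of H19 and Mest, was not tested.

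E2f4 knockdown changed the same factor in the other direction, in cells of an earlier passage by the paper's account. H19 was at 88.6, 104.2 and 83.9 CPM with nt and 53.0, 46.8 and 71.4 with sh1. Every sh1 library was below every control. H19 fell 1.62-fold (log2 fold change -0.69 ± 0.13, adjusted p = 0.001729, edgeR). Mest was at 4.18, 6.497 and 2.90 CPM with nt and 4.69, 5.26 and 8.42 with sh1. The ranges overlapped, and the log2 fold change was 0.43 (95% interval from -0.15 to 1.01, adjusted p = 0.3554). Igf2 was at 13.3 to 17.9 CPM with nt and 15.7 to 17.9 with sh1, also overlapping, with a log2 fold change of 0.10 (95% interval from -0.17 to 0.37).

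Peg3 rose with sh1, from 58.1, 56.0 and 58.3 CPM to 82.3, 84.6 and 96.1, without overlap (1.52-fold, adjusted p = 0.0001504). Ndn rose from 76.6 to 82.1 CPM up to 94.0 to 106 (1.24-fold, adjusted p = 0.009486), which was over 0.05 without nt replicate 1 (0.05597). Dlk1 fell from 52.9 to 62.8 CPM to 38.7 to 51.1 (adjusted p = 0.03819), and Grb10 from 559 to 594 to 496 to 527 (adjusted p = 0.037). Each of these last 2 no longer passed when any 1 of 4 libraries was left out, with adjusted p from 0.06426 (Dlk1 without sh1 replicate 3) to 0.1824 (Dlk1 without nt replicate 2) and from 0.08939 (Grb10 without sh1 replicate 1) to 0.1865 (Grb10 without nt replicate 3). The other libraries were nt replicate 1 and sh1 replicate 2 for Dlk1, and nt replicates 1 and 2 for Grb10. None of the 10 genes was called over 2-fold, where 1.67% of 12310 genes were, and 5 of the 10 passed with no limit on the fold, against 17.8%. The median log2 fold change was 0.02 over the 10 and -0.01 over all genes.

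Side by side, the 5 genes that moved over 2-fold with overexpression had log2 fold changes with sh1 of -0.69 (H19), 0.43 (Mest), 0.10 (Igf2), -0.34 (Dlk1) and -0.06 (Meg3, 693 to 750 CPM with nt and 590 to 788 with sh1). These 5 were picked by their size with overexpression, which the rule used, so nothing is read from the pairing. H19 and Dlk1 passed as lower with the knockdown, Dlk1 not in every fit with a library left out. Mest, Igf2 and Meg3 did not pass. Of the other genes, Peg3 and Ndn passed as higher with sh1 and had log2 values of -0.94 and -0.27 with overexpression. Grb10 passed as lower with sh1, not in every such fit, and was at 0.30 with overexpression. In the same libraries the macrophage markers summed to 6.20 to 10.4 CPM with nt and 14.9 to 20.1 with sh1, the muscle markers to 74.6 to 76.9 and 112 to 136, and the proliferation genes to 992 to 1050 and 760 to 796. Their part in these values was not tested.

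Tead1 knockdown raised H19 and Dlk1. Dlk1 was at 108, 102 and 95.1 CPM with nt, 221, 239 and 228 with sh3, and 183, 213 and 213 with sh4. Both hairpins stood above the controls. Dlk1 rose 2.25-fold with sh3 (log2 fold change 1.17 ± 0.05, adjusted p = 1.077e-16) and by 0.998 on the log2 scale with sh4 (adjusted p = 8.581e-15), just under the limit of 1. It was over that limit without nt replicate 1, nt replicate 2 or sh4 replicate 1 (log2 fold changes of 1.04, 1.00 and 1.07).

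H19 was at 23.8, 28.5 and 26.6 CPM with nt, 47.8, 54.0 and 61.1 with sh3, and 33.5, 31.9 and 32.3 with sh4. The 3 groups did not overlap. H19 rose 2.06-fold with sh3 (log2 fold change 1.05 ± 0.08, adjusted p = 3.213e-12) and 1.24-fold with sh4 (adjusted p = 0.004325). Without nt replicate 1 or sh3 replicate 3 its log2 fold change with sh3 was 0.98 or 0.95, under the limit. The hairpins differed in H19 by -0.74 on the log2 scale (sh4 against sh3, adjusted p = 1.494e-07) and in Dlk1 by -0.17 (adjusted p = 0.03328), the latter over 0.05 without sh3 replicate 2, sh3 replicate 3 or sh4 replicate 1 (0.1583, 0.08066 and 0.3007).

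The transcription factor Plagl1 fell with both Tead1 hairpins, from 23.7 to 27.6 CPM to 17.7 to 18.8 with sh3 and 19.3 to 22.6 with sh4 (log2 fold changes -0.46 and -0.25, adjusted p = 7.065e-05 and 0.01997). The sh4 value did not pass without nt replicate 2 or sh4 replicate 1 (adjusted p = 0.1378 and 0.134). Cdkn1c fell from 6.24 to 8.50 CPM to 5.41 to 5.62 with sh3 and 4.40 to 5.01 with sh4 (log2 fold changes -0.43 and -0.66, adjusted p = 0.0223 and 0.001066). The sh3 value did not pass without nt replicate 1, nt replicate 3 or sh3 replicate 1 (adjusted p from 0.06229 to 0.1333). Ndn fell by 0.19 and by 0.21 on the log2 scale (adjusted p = 0.005386 and 0.003051).

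Peg3 was at 32.2 to 40.2 CPM with nt, 36.0 to 45.99 with sh3 and 41.1 to 45.6 with sh4, and passed with both hairpins (log2 fold changes 0.25 and 0.29, adjusted p = 0.01727 and 0.006949). With sh3 it did not pass without nt replicate 2, nt replicate 3, sh3 replicate 2 or sh3 replicate 3 (adjusted p from 0.07679 to 0.1235) and with sh4 without nt replicate 2 (0.05207). Meg3 passed with sh4 alone, with a log2 fold change of -0.13 (adjusted p = 0.03408), and did not pass without any 1 of nt replicates 1 and 3 and the 3 sh4 libraries (adjusted p from 0.05056 to 0.1933). Mest was at 2.17 to 3.12 CPM with nt, 1.82 to 2.51 with sh3 and 1.495 to 2.05 with sh4, and Igf2 was at 16.9 to 21.6 CPM over all 9 libraries, and neither passed the test. With sh3, 2 of the 10 genes were called, against 2.71% of 13012 genes, and 6 passed, against 35.4%. With sh4 none was called, against 1.53%, and 7 passed, against 29.1%. Between the hairpins none was called, against 0.269%, and 2 passed, against 7.37%. The hairpins share their controls, and the sequences that the paper lists for sh3 and sh4 target nearly the same bases of Tead1. Their values are therefore not independent of each other, and a like change with both is not separate evidence from each. The adipocyte markers summed to 42.2 to 44.1 CPM with nt, 63.8 to 69.0 with sh3 and 69.9 to 74.3 with sh4, where 3 of 3 tested passed as higher with each hairpin. The muscle markers summed to 98.1 to 99.5, 64.5 to 74.8 and 72.7 to 83.7 CPM. The macrophage markers summed to 10.6 to 11.7, 8.66 to 10.1 and 9.81 to 12.8 CPM, and Lyz2 and C1qa of them were called lower with sh3 (log2 fold changes -1.41 and -3.22). Their part in the values of H19 and Dlk1 was not tested.

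Atf3 knockdown gave the largest falls after the passages, and the hairpins differed. Cdkn1c, the gene of p57, was at 93.6, 91.9 and 102 CPM with nt, 29.6, 40.2 and 33.9 with sh5, and 2.73, 3.36 and 4.01 with sh6. The 3 groups stood far apart. It fell 2.77-fold with sh5 (log2 fold change -1.47 ± 0.13, adjusted p = 9.353e-05) and 28.4-fold with sh6 (log2 fold change -4.83 ± 0.16, adjusted p = 2.673e-08).

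Dlk1 was at 181, 161 and 172 CPM with nt, 31.9, 33.1 and 27.4 with sh5, and 15.3, 15.0 and 16.4 with sh6. It fell 5.57-fold (adjusted p = 1.073e-06) and 11-fold (adjusted p = 1.781e-08), again with 3 separate groups. H19 was at 278, 280 and 309 CPM with nt, 70.3, 89.5 and 58.2 with sh5, and 27.3, 26.1 and 41.5 with sh6. It fell 3.98-fold (log2 fold change -1.99 ± 0.19, adjusted p = 0.0001392) and 9.13-fold (log2 fold change -3.19 ± 0.20, adjusted p = 8.641e-07).

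Igf2 fell with both hairpins as well, from 47.1 to 50.5 CPM with nt to 22.1, 27.6 and 12.6 with sh5 and 11.8, 8.63 and 12.2 with sh6. The controls stood above all 6 treated libraries, and sh5 and sh6 came close in 1 library. The log2 fold changes were -1.23 ± 0.23 (adjusted p = 0.003692) and -2.16 ± 0.24 (adjusted p = 4.349e-05). Without sh5 replicate 3 the first was -0.95, under the limit.

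Plagl1, Peg3 and Grb10 fell with sh6, and none of them passed the test with sh5. Plagl1 was at 117, 105 and 104 CPM with nt, 119, 116 and 77.4 with sh5, and 39.3, 43.4 and 52.1 with sh6 (sh6 log2 fold change -1.27, adjusted p = 9.939e-05). Peg3 was at 102 to 103 CPM with nt, 92.2 to 111 with sh5, and 45.7 to 55.5 with sh6 (sh6 log2 fold change -1.01, adjusted p = 1.224e-05), where the call over 2-fold was lost without sh6 replicate 2 (-0.94), with DESeq2 (-0.9946), with DESeq2 size factors (-0.9954) and with no filter on low counts (-0.997). Grb10 was at 627 to 661 CPM with nt, 696 to 755 with sh5, and 322 to 357 with sh6 (sh6 log2 fold change -0.91, adjusted p = 2.45e-06). With sh5 Grb10 had an adjusted p of 0.05748, and it passed as higher without sh5 replicate 3, sh6 replicate 1 or sh6 replicate 3 (0.02369, 0.0377 and 0.03947). Meg3 fell with both, from 748 to 908 CPM to 443 to 521 with sh5 and 443 to 482 with sh6 (log2 fold changes -0.73 and -0.83, adjusted p = 0.0005486 and 3.661e-05).

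Mest rose with one hairpin and fell with the other. It was at 24.6, 26.2 and 22.1 CPM with nt, 31.1, 33.4 and 31.0 with sh5, and 15.6, 17.3 and 17.1 with sh6. The 3 groups did not overlap. It rose by 0.39 on the log2 scale with sh5 (adjusted p = 0.01239, and 0.06225 without nt replicate 3) and fell by 0.54 with sh6 (adjusted p = 0.001144). Ndn was at 88.2 to 98.4 CPM with nt, 73.3 to 89.2 with sh5 and 129 to 146 with sh6, a rise of 0.57 on the log2 scale with sh6 (adjusted p = 0.00049). With sh5 its log2 fold change was -0.22 (adjusted p = 0.07924, and 0.03063 without sh5 replicate 2).

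**Figure D2:**
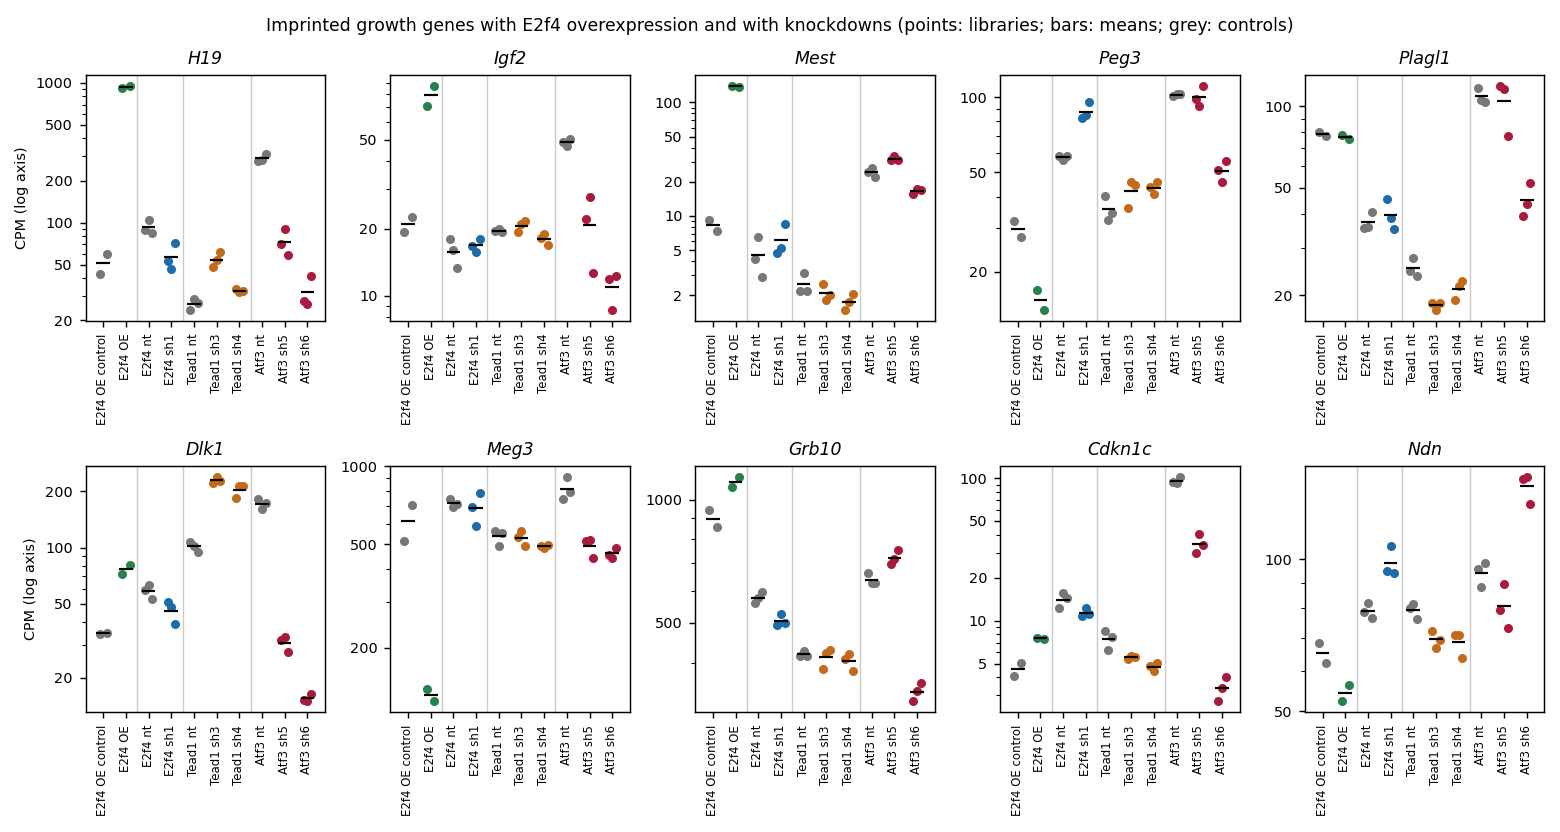
CPM of the 10 genes on a log axis in the overexpression and knockdown experiments, with a point per library, a bar for the mean of each group and controls in grey. With E2f4 overexpression H19 stood at 918 and 955 CPM and Mest at 140 and 136, above every other library, and with Atf3 sh6 Cdkn1c stood at 2.73 to 4.01 against 91.9 to 102 in its controls.

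Of the 10 genes, 4 were called with sh5, all lower, against 5.20% of 13345 genes, and 6 passed, against 35.9%. Replicate 3 of sh5, which stood apart, held the lowest sh5 value of H19, Igf2, Dlk1 and Plagl1. Without it 3 were called, with log2 fold changes of -1.83 (H19), -2.37 (Dlk1) and -1.43 (Cdkn1c), and Igf2 was at -0.95. With sh6, 6 were called, all lower, against 15.7%, and all 10 passed, against 49.8%. Between the hairpins 4 were called lower (H19, Plagl1, Grb10 and Cdkn1c), against 15.8%, and 9 passed, against 52.6%. Without sh6 replicate 3 the count between the hairpins was 7, as Igf2, Peg3 and Dlk1 moved just over 2-fold (log2 fold changes -1.04, -1.07 and -1.04). The median log2 fold change with sh6 was -1.14 over the 10 genes and -0.02 over all genes, and with sh5 it was -0.48 and -0.03. The level of Atf3 itself overlapped between the hairpins, while that of E2f4 was higher with sh6 without overlap, as given above. Xist was at 301 to 327 CPM with nt, 407 to 464 with sh5 and 200 to 269 with sh6, and Ddx3y at 79.9 to 87.2, 92.1 to 104.3 and 120 to 136. The muscle markers summed to 37.6 to 39.1, 13.9 to 17.8 and 196 to 215 CPM. Myf5 and Pax7 were at 0 in all 3 groups. Of the 3 tested, Acta1 was called higher with sh6 (log2 fold change 2.56), and Tnnt3 and Des were called lower (-2.64 and -1.01). The fibroblast markers summed to 38440 to 40260, 24010 to 36860 and 16720 to 17490 CPM, where 4 of 8 were called lower with sh6. The adipocyte markers summed to 136 to 171, 187 to 212 and 42.2 to 61.2 CPM. The part of these differences in the values of the 10 genes was not tested.

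**Figure D3:**
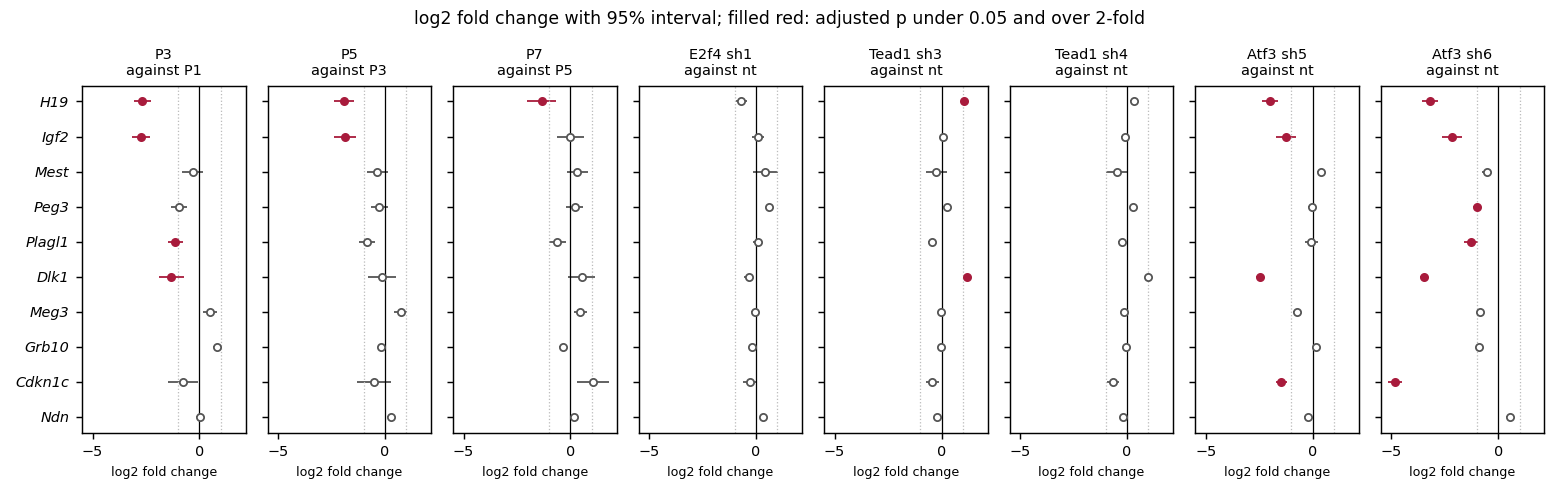
The log2 fold change of each gene in 8 comparisons with its 95% interval, where filled red points passed an adjusted p under 0.05 and a 2-fold change and open grey points did not. H19 is red on the negative side in 5 of the 8 comparisons and on the positive side with Tead1 sh3, where it rose 2.06-fold.

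Ordered by mean level over all 14 groups, H19 was highest with E2f4 overexpression (936 CPM), followed by the Atf3 controls (289), and was lowest at P3 (8.23), P5 (2.16) and P7 (0.834), each apart from its neighbour. From the E2f4 knockdown controls (92.2) down to the overexpression controls (51.1) each group overlapped the next. Mest was highest with E2f4 overexpression (138 CPM), followed by Atf3 sh5 (31.8), the Atf3 controls (24.3) and Atf3 sh6 (16.7), which stood apart from each other. From the overexpression controls (8.27) down to Tead1 sh4 (1.77) neighbouring groups overlapped. Dlk1 spanned 1.10 CPM at P5 to 229 with Tead1 sh3, Cdkn1c 1.02 at P5 to 95.7 in the Atf3 controls, Plagl1 2.93 at P7 to 109 in the Atf3 controls, and Meg3 33.7 at P1 to 818 in the Atf3 controls. Ndn had the narrowest span, from 54.3 CPM with E2f4 overexpression to 140 with Atf3 sh6. The experiments were scaled separately, and scaling all 44 libraries together moved these means by -3.28% to 6.10%. The groups also differed in passage, in viral treatment and in the sex of the donors, since Y-linked RNA was found in the manipulated libraries alone. The age of the mice may have differed too, as the labels do not give it for the manipulated libraries. The part of these in the order was not tested.

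In ATAC-seq, each start site was given the percentile of its strongest peak within 1000 bases among all peaks of the same sample, with 0 for no peak. The samples had from 142384 to 231558 peaks, with 168982 to 186562 at P1 and 200376 to 231558 at P7, and a percentile is relative to them. The start of Plagl1 was at 83.5, 81.8, 82.5 and 87.5 at P1, 74.1, 61.8 and 69.3 at P3, 57.4, 75.9 and 67.9 at P5, and 39.8, 54.8 and 62.5 at P7. P7 was below P1 in every sample, by 31.5 points in the mean. Its RNA fell 5.96-fold over the same passages.

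Ndn was at 86.5, 81.7, 87.8 and 86.8 at P1, 69.4, 69.9 and 56.5 at P3, 81.2, 71.2 and 70.3 at P5, and 56.0, 63.2 and 58.9 at P7. It too was lower at P7 in every sample, by 26.3 points, while its RNA rose 1.38-fold. Mest was at 69.8, 58.7, 70.1 and 68.6 at P1, 66.6, 61.5 and 62.4 at P3, 69.9, 71.0 and 71.1 at P5, and 76.2, 71.8 and 75.7 at P7. P7 was above P1 in every sample, by 7.8 points, but the direction turned with a window of 500 bases (-18.9 points) and with the bases covered by peaks (-322 bases).

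For each of Plagl1, Ndn and Mest the exact permutation test gave p = 0.0286, two-sided, the smallest that 4 against 3 samples allow, and the adjusted p over 24385 promoters was 0.089, so none passed 0.05 after adjustment. These 3 of 10 compare with 32.1% of all promoters at the smallest p, and the 2 that were lower at P7 with 22.3%. Mest left the smallest p of its design without any 1 of the P7 samples (6.93 to 9.14 points), while Dlk1 reached it without P1 replicate 4 (-24.2), Meg3 without P1 replicate 3 (-12.35) and Cdkn1c without P7 replicate 3 (-6.47). The count was 5 with covered bases, and nothing is read from it, since the share of all promoters in that setting is not given here. The median difference was -5.6 points over the 10 genes and -0.8 over all promoters. Of the 10, 8 were lower, and of these only Plagl1 and Ndn did not overlap between P1 and P7. Nothing is read from that count, since the share of all promoters that were lower is not given here.

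**Figure D4:**
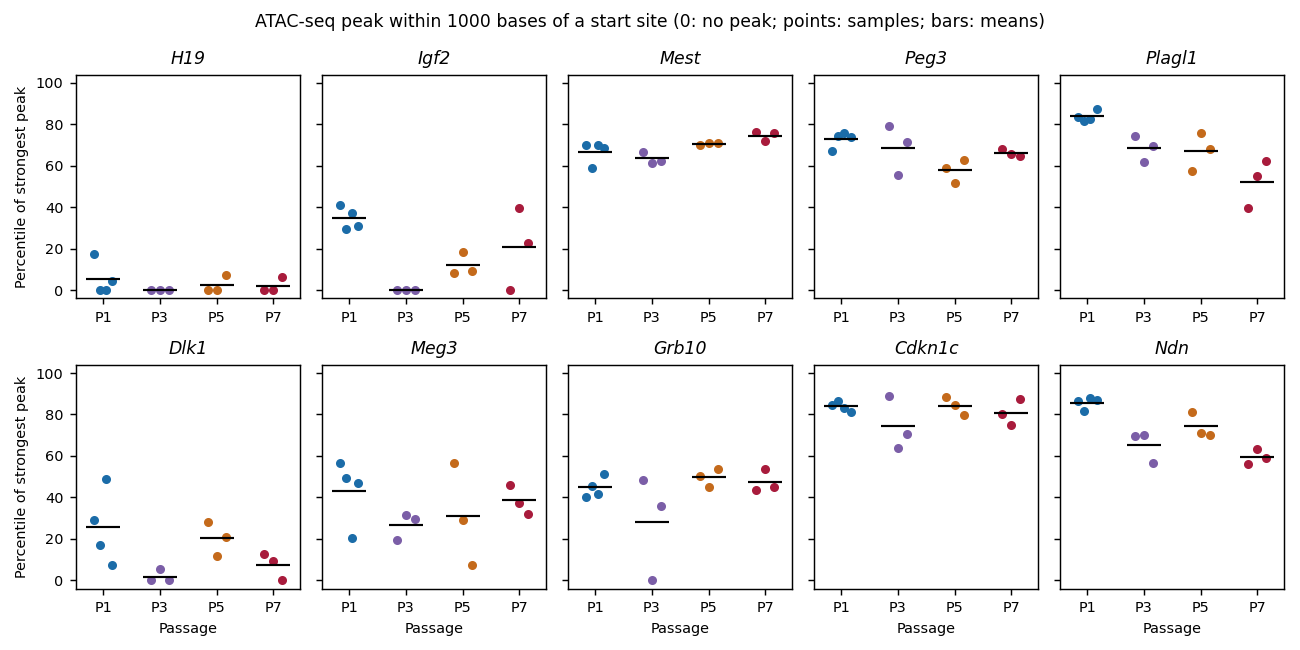
Percentile of the strongest ATAC-seq peak within 1000 bases of a start site on the vertical axis (0 is no peak), with a point per sample and a bar for the mean of each passage. Plagl1 and Ndn lie above 81 at P1 and below 64 at P7, and H19 has points above 0 in only 4 of the 13 samples.

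At its own start H19 had a weak peak in 4 samples, 2 of P1 (17.5 and 4.5), 1 of P5 (7.4) and 1 of P7 (6.2), and none at P3. The difference between P7 and P1 was -3.4 points (exact permutation test, p = 0.7143) and 0.57 without P1 replicate 1. The regions printed above were open throughout. The one at 2.5 kb was at 44.9 to 57.3 in P1, 43.4 to 61.6 in P3, 43.3 to 46 in P5 and 39.3 to 45.1 in P7. The one at 3.8 kb was at 39.6 to 56.2, 17.8 to 48.3, 41.2 to 61.2 and 51.7 to 64.6. A region at 48.7 kb upstream, between H19 and Igf2, also had a peak in all 13 samples. No test was run on these regions, and the passages overlapped in each of the 2 printed regions, save for P3 against P7 at 3.8 kb.

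The Igf2 start at 142658804 had a peak at 41.2, 29.3, 37.1 and 31.1 at P1, in no sample of P3, at 8.4, 18.6 and 9.0 at P5, and at 0, 39.6 and 22.7 at P7. P1 stood above P3 and P5 and overlapped P7. The difference between P7 and P1 was -13.9 points (exact permutation test, p = 0.2286), and -23.3 without P7 replicate 2, where it was at the smallest p. Of the other 3 starts, 142657496 had no peak in any sample, and 142661271 and 142666816 had none above 9.3.

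At the start of Meg3 the percentile was 56.8, 49.1, 20.6 and 46.7 at P1 and 46, 37.3 and 32.2 at P7, which overlapped (exact permutation test, p = 0.6571). A peak 2.2 kb inside the gene was present in all 13 samples, at 60.8 to 66 at P1 and 72.5 to 83.5 at P7. A region 29.4 kb upstream of Meg3, chr12:109511274-109511958, was named after its values were seen. It had a peak in 3 of 4 samples at P1, at up to 25.3, and was at 54.4 to 66.3 at P3, 55.3 to 61.6 at P5 and 69.7 to 83.5 at P7, above P1 in every later sample. The Dlk1 starts were at 7.4 to 48.8 at P1 and 0 to 12.6 at P7 (p = 0.2, exact permutation test).

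**Figure D5:**
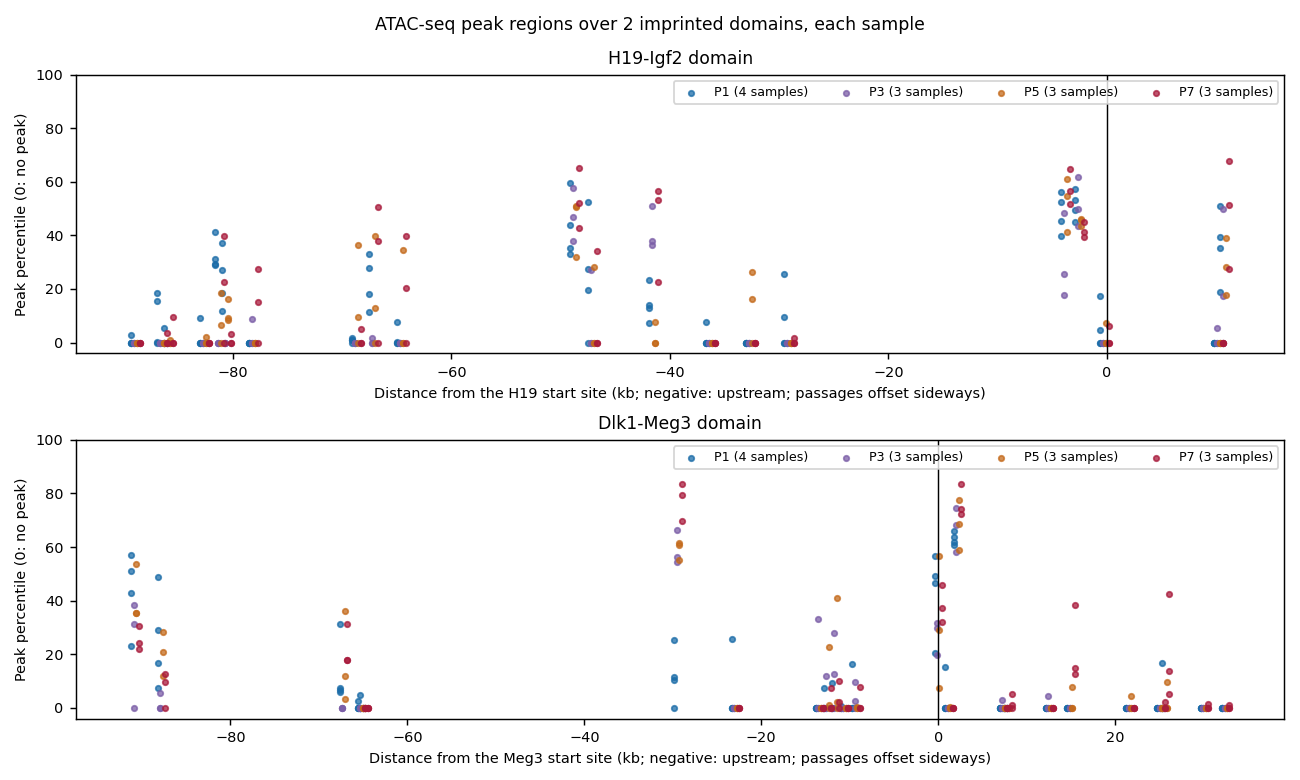
ATAC-seq peak regions by distance in kb from the start of H19 and of Meg3 on the horizontal axis and peak percentile in each sample on the vertical axis (0 is no peak), coloured by passage. The regions 2.5 and 3.8 kb upstream of H19 have a peak in all 13 samples, and the region 29.4 kb upstream of Meg3 is at 0 to 25.3 at P1 and 69.7 to 83.5 at P7.

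Grb10 was at 40.4 to 51.3 at its outer start at P1 and 43.6 to 45.1 at P7. Its inner start, at position 12027971, had no peak at P1 or P3, a peak in 1 of 3 samples at P5 (43.2) and in 3 of 3 at P7 (27.3, 53.8 and 29.5). The gene as a whole differed by 2.7 points between P7 and P1 (p = 0.4857, exact permutation test), and by -0.51 without P7 replicate 2. Peg3 was at 67.0 to 75.7 at P1 and 64.6 to 68.3 at P7 (p = 0.0857), and at the smallest p without P1 replicate 1 or P7 replicate 1, by -8.4 and -7.6 points (exact permutation tests). With a window of 500 bases, Peg3 was at 33.7 to 59.7 at P1 and had no peak in any P5 or P7 sample. At P3 only replicate 3 had a peak in that window (29.1). The peaks given for P7 thus lay further from the start. Cdkn1c was at 81.4 to 86.6 at P1 and 74.8 to 87.7 at P7 (p = 0.4286, exact permutation test), and its start was among the strongest of the 10 at every passage.

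The other genes of these pathways were taken from fixed lists. From P1 to P7, 1089 of all 13442 genes tested were called higher and 1792 lower, or 21.4% together, and the counts of each list stand against these. Of 16 tested genes outside the 10 that were listed as maternally expressed, 7 rose over 2-fold from P1 to P7 and 1 fell. Slc22a18 (log2 fold change 2.77, adjusted p = 1.568e-05, edgeR) and Rian were at the top, and Dcn fell (-1.81, adjusted p = 1.296e-07). Slc22a18, an organic cation transporter, lies in the domain of Cdkn1c, and Dcn encodes decorin, a proteoglycan of the matrix. Of 15 tested genes listed as paternally expressed, 1 rose and 3 fell, a share near that of all genes. Those that fell were Mkrn3 (-1.47, adjusted p = 0.005453), Peg10 (-1.37, adjusted p = 1.658e-07) and Kcnq1ot1 (-1.24, adjusted p = 0.0003831). The medians of the maternally and paternally expressed lists were 0.93 and 0.06, against -0.01 over all genes. The lists do not say in which tissue each gene is imprinted, so these medians do not compare parental copies in these cells.

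Of 15 genes of IGF signalling, 6 rose and 2 fell over 2-fold from P1 to P7. The binding proteins Igfbp2 and Igfbp3 went apart, with log2 fold changes of 3.02 (adjusted p = 1.499e-06) and -2.32 (adjusted p = 2.931e-08), and Igf2bp3, a protein that binds Igf2 RNA, rose by 1.85 (adjusted p = 1.063e-09). Of 10 genes that keep imprints, 5 fell and none rose, led by Uhrf1 (-3.43, adjusted p = 1.414e-12), Hells (-2.93, adjusted p = 1.788e-11) and Dnmt1 (-1.85, adjusted p = 3.098e-11). Uhrf1 and Dnmt1 copy DNA methylation after replication, and all 12 proliferation genes fell over 2-fold in the same comparison. Of 11 tested genes of the growth programme that is shut down after birth, 3 rose and 3 fell, among them the growth factors Mdk (-2.30, adjusted p = 5.446e-05) and Ptn (2.07, adjusted p = 1.824e-05) and the methyltransferase Ezh2 (-1.87, adjusted p = 2.985e-10).

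With Atf3 sh6, 645 of 13345 genes were called higher and 1449 lower, or 15.7% together. Of 15 IGF signalling genes 6 fell and 1 rose over 2-fold, led by Igfbp6 (-3.18, adjusted p = 2.263e-07), the ligand Igf1 (-2.93, adjusted p = 4.305e-07) and Igfbp3 (-2.85, adjusted p = 8.021e-08). With sh5 none of the 15 was called, and 4 rose and 5 fell with no limit on the fold. Among the other imprinted genes, sh6 lowered Slc22a18 (-2.90, adjusted p = 2.784e-05) and Dio3 (-2.84, adjusted p = 0.002475) and raised Asb4, Nnat and Peg10 (1.86, 1.76 and 1.68), while sh5 lowered Slc22a18 (-1.18, adjusted p = 0.0078) and raised Airn and Kcnq1ot1 (1.24 and 1.11). Dio3, which inactivates thyroid hormone, lies in the Dlk1 domain.

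Tead1 knockdown raised Dio3, by 1.92 with sh3 and 1.49 with sh4 on the log2 scale, beside Dlk1 of the same domain. Both hairpins lowered Mkrn3 (-2.07 and -1.96) and raised Igfbp3 (1.16 and 1.00), and all of these were called by edgeR. With E2f4 sh1 the only called gene of the imprinted and IGF lists was Asb4 (1.42, adjusted p = 0.03734). With E2f4 overexpression, given without a test, Dio3 and Peg10 were higher by 2.68 and 2.49 on the log2 scale, Rian and Kcnq1ot1 were lower (-1.54 and -1.74), and of the 10 genes that keep imprints Dnmt1 and Uhrf1 were higher (1.44 and 1.2003) and Zfp445 lower (-1.01), with a median of 0.0027 over the 10. Rian was at 802 and 934 CPM with the vector and 284 and 312 with E2f4, and so was lower in both libraries together with Meg3.

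Reads were counted by the authors without regard to strand, so counts in exons shared with another gene are uncertain. Mest shares 913 exonic bases with Copg2 on the other strand, Peg3 shares 865 with Peg3os, Plagl1 shares 218 with Hymai on the same strand, and Igf2 shares 98 with Igf2os. H19 shares 84 with Mir675, and Meg3 shares 94 with Mir770 and 80 with Mir1906-1.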

How the data were processed

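RNA-seq of 44 libraries and ATAC-seq of 13 samples of mouse skin fibroblasts were analysed. The deposited raw counts per gene were made by the authors with HTSeq 0.12.4, without strand, from mm10 alignments by HISAT2 2.2.1 of reads cut with Trimmomatic 0.39. Rows that name no gene held 7.5% to 16.8% in the 28 manipulated libraries and were left out, and the passage files held none. The deposited ATAC-seq peaks were called by the authors with MACS2 in each sample, after Bowtie2 alignment, and the files give −log10 p-values (2.0 or higher), a fold enrichment signal and a summit position score. The tool versions come from the submitters' processing notes.

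The 10 genes and all gene lists were chosen with earlier results of these data known. Each experiment was fitted on its own over all genes in edgeR 4.0.16 (R 4.3.3) with TMM scaling, filterByExpr, a prior count of 2 and the quasi-likelihood test, and p-values were adjusted over all genes tested by Benjamini-Hochberg. A gene passed at an adjusted p under 0.05, and was called if it also changed over 2-fold. CPM are counts scaled to TMM-adjusted library sizes. Named were all 10 genes, the targeted and sex genes, the 3 genes whose log2 CPM correlated best with H19 and with Mest over the 16 passage libraries, and per list and comparison the called genes with the 3 largest changes. One item that this rule names is not reported here. Promoter peaks were compared between P7 and P1 by exact two-sided permutation tests over samples. The fit was tested on simulated data. Replicates of no group agreed within sampling noise (chi-square per degree of freedom of at least 2.75 over 50 pairs). Replicate numbers were not used as pairs in the main fit, since the labels tie no number to an animal or culture and same-numbered passage libraries deviated together weakly (correlations from -0.262 to 0.276), which does not show that they were unrelated. Total counts from 9147324 to 27552949 set the precision, and the read depth behind the peaks is unknown. Methylation samples were not analysed here.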

Additional observations from a re-analysis of the deposited data

Results flagged for a closer look

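In a group of 4 samples, 2 of 50 sets of values had a sample far from the other 3 by Dixon's test, and chance gives about 1 in 20. Plagl1 was at 11.18 CPM in P3 replicate 2, against 6.64 to 7.39 in the other P3 libraries. The peak at the Mest start was at percentile 58.7 in P1 replicate 2, against 68.6 to 70.1 in the other P1 samples.

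The hairpins against one factor differed in several genes, by the test of one hairpin against the other in edgeR. Between Tead1 sh4 and sh3 the log2 difference was -0.7381 in H19 (adjusted p = 1.494e-07) and -0.1745 in Dlk1 (adjusted p = 0.03328). Between Atf3 sh6 and sh5 it was -3.3597 in Cdkn1c (adjusted p = 2.131e-07), -1.2144 in Plagl1 (0.0001489), -1.1999 in H19 (0.0004639), -1.0864 in Grb10 (9.339e-07), -0.984 in Peg3 (1.672e-05), -0.9818 in Dlk1 (1.757e-05), -0.9337 in Mest (3.288e-05), -0.9305 in Igf2 (0.008818) and 0.7908 in Ndn (5.674e-05). All 3 sh6 libraries were below all 3 sh5 libraries in each of these genes except Ndn, which was higher in all 3.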

How the results depend on the processing

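Leaving out 1 library at a time left 1188 of 1280 log2 fold changes of the 10 genes unchanged, and the other settings left 667 of 680. Unchanged here means the same direction and the same side of the adjusted p threshold. The 2-fold limit was not part of this count. Calls gained or lost at that limit therefore counted as unchanged, such as Peg3 from P1 to P7, H19 with Tead1 sh3 and Dlk1 with Tead1 sh4. The E2f4 overexpression values have no test and were judged by how far they moved. The number of genes called moved by over 1.5 times in few settings. From P3 to P5 it was 1 with at least 10 counts (main 2), and from P5 to P7 it was 2 with DESeq2, 0 with at least 10 counts and 1 to 2 without a library (main 1). Without a library it was also 1 to 2 with Tead1 sh3, 0 to 1 with sh4, and 4 to 7 between the Atf3 hairpins. Promoters at the smallest p numbered 5 by covered bases (main 3), without a share of all promoters to set beside it. The replicate block changed no count of genes called.

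Of the log2 fold changes that changed sign, all near 0, the ranges over the fits without 1 library were -0.0153 to 0.0663 (Ndn, P1 to P3), -0.255 to 0.0164 (Dlk1, P3 to P5), -0.1608 to 0.1675 (Igf2, P5 to P7, and 0.0084 with the replicate block) and -0.4663 to 0.0031 (Cdkn1c, P1 to P7). With E2f4 sh1 they were -0.0006 to 0.2006 (Igf2), -0.0161 to 0.1755 (Plagl1) and -0.1531 to 0.0576 (Meg3), and with Tead1 sh3 -0.0719 to 0.0304 (Meg3) and -0.0515 to 0.022 (Grb10). Between the Tead1 hairpins they were -0.0603 to 0.1058 (Peg3), -0.0792 to 0.0033 (Grb10) and -0.0475 to 0.0299 (Ndn), and with Atf3 sh5 -0.0773 to 0.0326 (Peg3) and -0.1665 to 0.14 (Plagl1). Promoter differences ranged over -5.51 to 0.57 (H19) and -0.51 to 4.83 points (Grb10) without 1 sample. They also changed sign for Mest with 500 bases (-18.91) and covered bases (-322), for Grb10 likewise (-0.24 and -122.25), and for Peg3 and Cdkn1c by fold enrichment (0.14 and 1.84). The cause was not tested. Genes near 10 counts, such as H19 at P7, limit the late passages.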
